A study of Macaca fascicularis with 6 samples.

Results

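The PRG4-high cells of articular cartilage were 96 of the 320 cells of cyAC, a sample of intact articular cartilage from the cynomolgus monkey. The 4 samples compared held 1280 cells and the whole series 7007. The cells were chosen by *PRG4* itself. The reads of each cell were scaled to CPM, counts per 1e6 reads of the cell, and a cell was taken as PRG4-high when the natural logarithm of its *PRG4* CPM + 1 was at least 8. The 161 cells below 6 are called PRG4-low here, and the 63 cells between 6 and 8 belong to neither group. Because *PRG4* chose the cells and cyAC was 1 sample, the differences between the groups describe these cells, without a test and without a replicate check.

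Single-cell transcriptomes were read by TAS-Seq, in which cDNA captured on beads is amplified after a tailing reaction. The cyAC cells came from wild-type monkeys 3 to 4 years old, as did cyFT, the fibrous tissue that filled chondral defects left empty, and both samples were pooled in 1 library after hashtag labelling. Pre-transplant cyiPS-Cart were cartilage organoids made from 1 iPS cell line carrying an EGFP reporter gene. Post-transplant cyiPS-Cart were such organoids recovered from knee defects of MHC-mismatched monkeys 4 months after transplantation, without immunosuppressive drugs, and their label gives a wild-type genotype and an age of 3 to 4 years, although the organoids came from the EGFP line. How many animals cyAC pools is not given in the sources used here. The tissue had been minced and digested, so the counts carry no position within the cartilage. The 320 cyAC cells held 11825548 reads, and no cell barcode was shared between libraries. The median depth was 28349 reads in PRG4-high cells, 24732 in the cells between and 33489 in PRG4-low cells. The corresponding medians were 2298, 2053 and 2406 genes per cell and 3.47%, 3.33% and 3.28% mitochondrial reads.

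*PRG4* encodes proteoglycan 4, or lubricin, a secreted glycoprotein that coats the joint surface and lowers friction. In articular cartilage it is made by the flattened chondrocytes of the superficial zone, while chondrocytes of the middle and deep zones make more type II collagen and aggrecan network. Lining fibroblasts of the synovium also secrete it, so *PRG4* alone does not name a cell type.

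Most of the cells held the main collagen of cartilage. Among PRG4-high cells, 82 of 96 (85.4%, exact 95% interval 76.7 to 91.8) held *COL2A1* reads and none of *COL1A1*, which encode the main collagens of cartilage and of fibrous tissue. The share did not set them apart within cyAC, since it was 137 of 161 (85.1%) in PRG4-low cells and 57 of 63 (90.5%) in the cells between. All 96 held reads of *ACAN*, the core protein of aggrecan, with a median of 5680 CPM, and all 96 held reads of the chondrocyte adhesion protein gene *CHAD*, with a median of 10009 CPM. Detection alone did not mark the cell type, since *CHAD* was also found in all 24 and *ACAN* in 20 of 24 PRG4-high cells of cyFT, at medians of 385 and 188 CPM. The label superficial could not be settled from these counts. Of 15 superficial-zone genes measured besides *PRG4*, 1 was at least 2-fold higher than in PRG4-low cells and 2 were at least 2-fold lower, beside 3.60% and 3.97% of all genes. The cells with *COL2A1* and without *COL1A1* reads were also compared alone, a choice made after the values were seen. There, 11 of 13 superficial-zone genes had a ratio above 0, 2 were past 2-fold higher and none lower. Of all 3214 genes there, 1732 lay above 0, 4.79% were past 2-fold higher and 3.67% lower. *DPT*, at -2.26, and *DKK3*, at 2.75, were not among the genes measured there. Of 14 middle- and deep-zone genes, 1 had a ratio above 0 over all cells. Within the cells with *COL2A1* alone, 2 of 15 did, with 1 past 2-fold higher and 3 lower. With no position in the data, the cells are named by *PRG4* here, not by zone.

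The *PRG4* values that chose the cells were widely spread. In the PRG4-high cells they ran from 3185 to 153312 CPM, with quartiles of 4713 and 21695 and a median of 8458 CPM. In the highest cell, *PRG4* took 15.3% of all reads. The PRG4-low cells reached 400.5 CPM at most, with a median of 136 CPM, which was 5 reads. Only 9 of the 161 PRG4-low cells were listed at 0, so most carried a trace of the transcript. For scale, 79.4% of the cyFT cells with *COL1A1* and without *COL2A1* reads, taken as fibroblasts, also held *PRG4* reads, with a median of 2 reads at a median depth of 21830 reads per cell. Summed over cells, *PRG4* stood at 16501 CPM in PRG4-high cells (Poisson interval 16364 to 16640) and at 148 CPM in PRG4-low cells (139 to 158). These intervals hold the counting error alone, and they treat each read as independent, although molecules were not counted. The PRG4-high cells made up 30% of cyAC cells and held 93.7% of its *PRG4* reads.

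No gap separated the groups at the thresholds. The cell just inside the upper threshold held 3185 CPM and the cell just outside 2834 CPM. Around the lower threshold, the nearest cells held 409 and 400.5 CPM. Within 0.25 of the upper threshold on the natural log scale lay 11 cells, and within 0.25 of the lower one lay 15, so the classes are ranges of a continuous level.

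The same threshold found fewer cells in each of the other samples. PRG4-high cells made up 30% of cyAC (exact 95% interval 25 to 35.3), 13.1% of post-transplant cyiPS-Cart (9.63 to 17.3), 7.5% of cyFT and 7.5% of pre-transplant cyiPS-Cart. Thinning to 12191 reads per cell left out the shallower cells, which were 12 in cyAC, 32 in cyFT and 1 in pre-transplant cyiPS-Cart, and no cell of post-transplant cyiPS-Cart. The shares were then 30.8% of 308, 13.4% of 320, 8.68% of 288 and 7.84% of 319 cells in the same order. The highest level was not in cartilage: PRG4-high cells of cyFT had a median of 16851 CPM and a maximum of 312913 CPM, or 31.3% of the reads of that cell. The medians in PRG4-high cells were 7002 CPM in cyiPS-Cart after and 5171 CPM before transplantation.

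**Figure D1:**
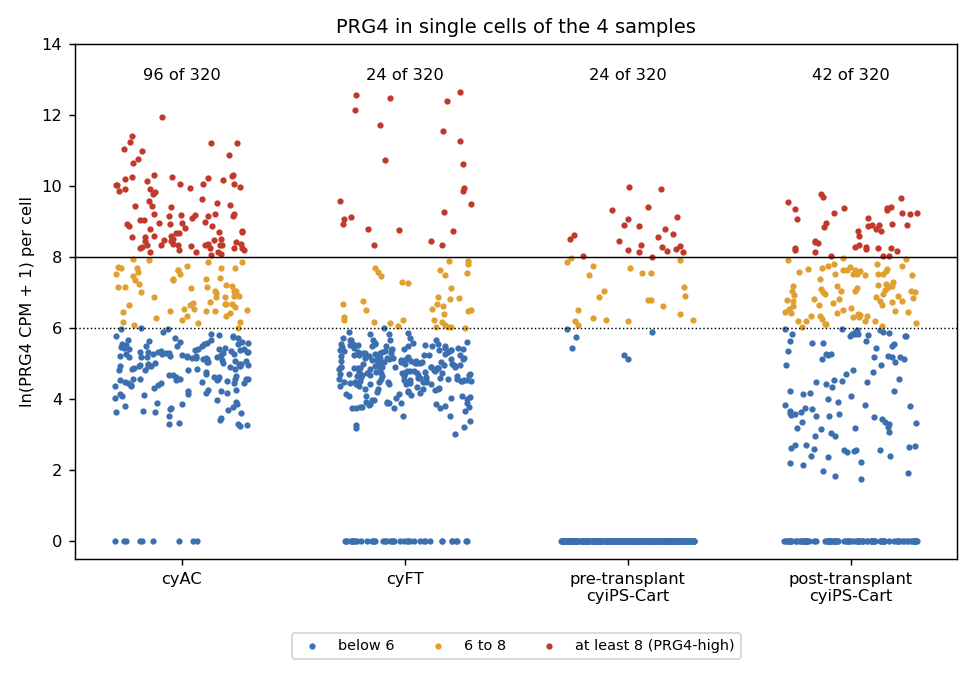
Each point is 1 cell, by sample, with ln(*PRG4* CPM + 1) on the vertical axis. The solid line marks the threshold of 8 and the dotted line that of 6, and the numbers above give the PRG4-high cells among 320, which were 96 in cyAC, 24 in cyFT, 24 in pre-transplant cyiPS-Cart and 42 after transplantation.

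To describe what else went with *PRG4*, mean CPM was compared gene by gene as the log2 ratio of mean CPM + 1, PRG4-high over PRG4-low, over the 3250 genes with a mean of at least 50 CPM in either group, *PRG4* left out. At least 2-fold higher were 117 genes, or 3.60%, and at least 2-fold lower were 129, or 3.97%, while the median over all genes was 0.01. When each gene's highest cell in each group was left out, the counts were 72 higher and 133 lower of 2870 genes that still passed 50 CPM, with a median of -0.047 over all genes. With the further demand that 25% of the cells in one group or the other hold reads of the gene, 79 of 3112 genes (2.54%) were higher and 102 (3.28%) lower. The 12 genes with the highest and the 12 with the lowest ratio among these 3112 are described next.

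**Figure D2:**
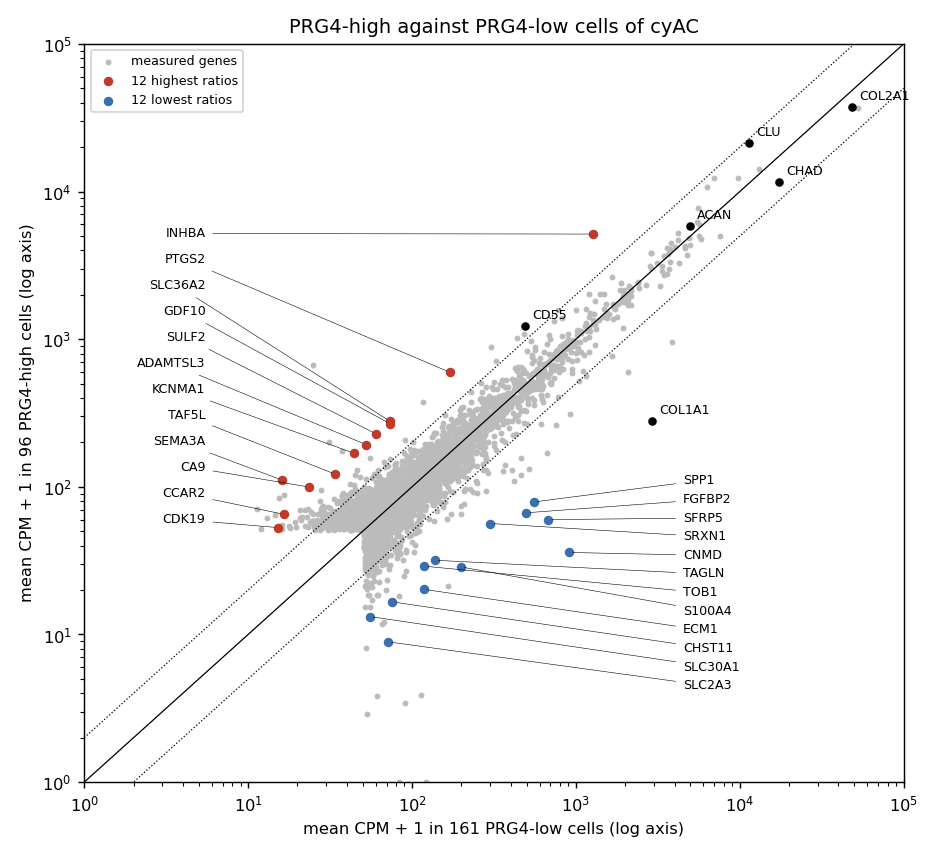
Mean CPM + 1 of each measured gene in the 96 PRG4-high cells (vertical, log axis) against the 161 PRG4-low cells (horizontal, log axis). The solid line marks equal levels and the dotted lines 2-fold differences. *INHBA* stands above the upper line at 5157 against 1275 CPM and *CNMD* below the lower line at 34.9 against 908 CPM.

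Secreted signalling proteins were among the 12 highest ratios. *SEMA3A* encodes semaphorin 3A, a secreted guidance cue that repels axons and vessels. It was listed at 0 in the median cell of both groups, but reads were found in 46 of 96 PRG4-high cells (47.9%, 37.6 to 58.4), in 9 of 63 cells between and in 21 of 161 PRG4-low cells (13%, 8.3 to 19.2). Its mean was 110 against 15.1 CPM, a log2 ratio of 2.79, and thinned to 16101 reads per cell the shares were 42.9% and 8.72%. *INHBA* encodes the subunit of activin A, a ligand of the TGF-β family. Its median was 2096 CPM in PRG4-high cells, with quartiles of 0 and 6313 CPM, and 0 in PRG4-low cells, where the upper quartile was 605 CPM. The means were 5157, 2103 and 1275 CPM in the high, between and low cells, with a log2 ratio of 2.02. *INHBA* counts below 10 reads do not occur in this library, since the authors set low counts of abundant genes to 0, so a cell at 0 may have held a few reads. *GDF10*, another ligand of this family, was found in 57 of 96 PRG4-high and 45 of 161 PRG4-low cells, at 267 against 72.6 CPM and a log2 ratio of 1.86.

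Enzymes and transport proteins made up much of the rest. *SULF2* encodes a secreted sulfatase that trims heparan sulfate. It was found in 62.5% of PRG4-high cells (52.0 to 72.2), in 30.2% of the cells between and in 27.3% of PRG4-low cells (20.6 to 34.9), and the log2 ratio of its means, 227 and 59.4 CPM, was 1.92. Against the 9 PRG4-low cells at 0 reads of *PRG4*, its ratio was 0.21. *KCNMA1*, the pore of a large-conductance potassium channel, was found in 66.7% against 30.4% of cells at 168 against 43.1 CPM. *SLC36A2*, a proton-coupled amino acid transporter, had a median of 114 CPM in PRG4-high cells and 0 in PRG4-low cells. *CA9*, a carbonic anhydrase known as a hypoxia target, stood at 98.8 against 22.5 CPM with reads in 33.3% and 18% of cells. *ADAMTSL3*, a matrix protein related to the ADAMTS proteases but without protease activity, stood at 192 against 51.5 CPM.

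For 2 more of these 12 genes, 1 cell held much of the level. *PTGS2*, the inducible cyclooxygenase of prostaglandin synthesis, had a log2 ratio of 1.81, but 43.3% of its summed CPM in PRG4-high cells lay in 1 cell. Its share of cells with reads was 49.0% against 42.2%, or 31.0% against 32.2% after thinning to 16101 reads, and with the highest cell of each group left out its ratio was 1.16. *CCAR2*, a nuclear regulator of transcription and the DNA damage response, had 43.9% of its summed CPM in 1 cell and a ratio of 1.98, or 1.52 without the highest cells. *TAF5L*, a component of histone acetyltransferase complexes, was found in 48 of 96 PRG4-high and 41 of 161 PRG4-low cells, with a ratio of 1.83. *CDK19*, a Mediator kinase, was found in 28 and 38 cells, with a ratio of 1.80. When reads were summed over cells before the ratio was taken, *PTGS2* and *CDK19* were no longer 2-fold apart, at 0.76 and 0.87.

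The 12 lowest ratios were led by *CNMD*, which encodes chondromodulin, an inhibitor of vessel growth made by cartilage. It was listed with reads in 5 of 96 PRG4-high cells (5.2%, 1.7 to 11.7), in 15 of 63 cells between and in 87 of 161 PRG4-low cells (54.0%, 46.0 to 61.9). The mean was 34.9 against 908 CPM and the log2 ratio -4.66. Counts of 1 to 6 reads do not occur for *CNMD* in this library, so cells at 0 may have held a few reads. Thinning to 16101 reads left the shares at 5.95% and 57.0%. *SFRP5*, a secreted WNT antagonist, was found in 33 of 96 and 91 of 161 cells, at 59.0 against 676 CPM and a ratio of -3.50. *FGFBP2*, an FGF-binding protein abundant in cartilage, was found in 10.4% against 42.2% of cells at 65.8 against 499 CPM.

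The other low ratios belonged to genes of varied function. *SPP1*, the mineral-binding protein osteopontin, had means of 78.1 and 554 CPM but medians of 14.6 and 36.1 CPM, and its highest PRG4-low cell reached 18128 CPM. *CHST11*, a chondroitin sulfotransferase, stood at 15.6 against 75 CPM, and *TAGLN*, an actin-binding protein of contractile cells, at 30.8 against 137 CPM. *SLC2A3*, a glucose transporter, had a ratio of -3.0, *SLC30A1*, a zinc exporter, -2.06, *SRXN1*, an antioxidant enzyme, -2.41, and *TOB1*, an antiproliferative regulator, -2.03. Against the 9 PRG4-low cells at 0 reads of *PRG4*, the ratio lay the other way for *SLC2A3* at 3.16, *SLC30A1* at 1.54, *CHST11* at 1.09 and *SPP1* at 0.13. *S100A4*, a calcium-binding protein of fibroblasts, had a ratio of -2.79, which was 0.01 without the cells that held *COL1A1* reads. *ECM1*, a secreted matrix protein, had a ratio of -2.56, and it was -0.41 within the cells with *COL2A1* and without *COL1A1* reads.

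The cells between the thresholds, which entered neither mean, lay between the groups for 10 of the 12 highest genes and for all 12 lowest. *KCNMA1* and *SULF2* were the exceptions, at 33.1 and 40.1 CPM in the cells between, below the PRG4-low means. The genes had been chosen for the widest ratios between PRG4-high and PRG4-low cells. Other cells of the sample are then likely to lie between, and the share of all genes that did so is not given here. These counts therefore do not show a graded change.

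**Figure D3:**
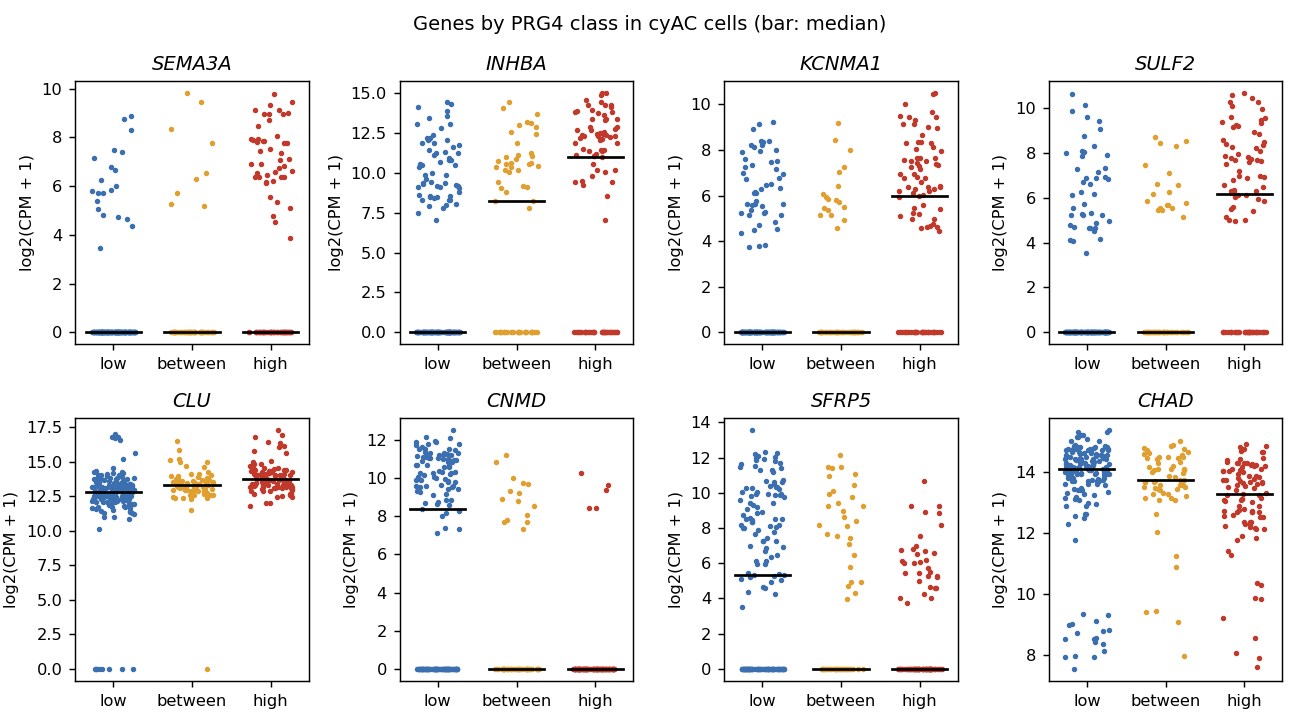
Log2(CPM + 1) of 8 genes in single cyAC cells by *PRG4* class, with the median as a bar. *CNMD* is listed with reads in 5 PRG4-high cells and 87 PRG4-low cells, while *CLU* and *CHAD*, found in nearly all cells, show shifts of the medians with overlapping ranges.

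Genes of the cartilage zones were compared next. The counts of every list described from here on are read beside the 3.60% of all genes past 2-fold higher and the 3.97% past 2-fold lower. Of the superficial-zone list, 15 of 19 found members were measured, with a median log2 ratio of 0.10 beside 0.01 over all genes. *SEMA3A* was the 1 past 2-fold higher. *DKK3*, a secreted glycoprotein of the Dickkopf family, and *DPT*, a collagen-binding dermatopontin, were past 2-fold lower at -2.96 and -4.20, each with reads in 6 PRG4-high cells, but without the cells that held *COL1A1* reads the ratio of *DKK3* was 2.03. *CLU*, or clusterin, a secreted chaperone abundant at the cartilage surface, had a median of 13715 CPM (quartiles 9211 and 19880) against 7062 CPM (4628 and 10639), and a ratio of means of 0.92. *ABI3BP* at 0.73, the transcription factor *ERG* at 0.59, the matrix protein *VIT* at 0.48 and the fibronectin receptor subunit *ITGA5* at 0.47 were higher by less than 2-fold. The cartilage protein *CILP* at 0.09, *THBS4* at 0.20 and the BMP antagonist *GREM1* at 0.10 were close to the all-gene median.

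The middle- and deep-zone list had 14 measured members, of which 1 had a ratio above 0, *COL11A2* at 0.17. *CNMD* and *SPP1* were the 2 past 2-fold lower, beside 3.97% of all genes, and the median was -0.32, with *SPP1* at 0.13 against the 9 cells at 0 reads of *PRG4*. *CHAD* had medians of 10009 against 17642 CPM and a ratio of -0.60. *COL9A1*, a chain of type IX collagen, had medians of 4464 against 7888 CPM and the same ratio of -0.60. *SCRG1*, a small secreted protein of chondrocytes, stood at -0.52, the membrane proteoglycan *SNORC* at -0.34 and the WNT antagonist *FRZB* at -0.31. The ranges of single cells overlapped for all of these genes.

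Within the 12 chondrocyte genes measured, *CNMD* alone was past 2-fold, and the median was -0.19. *COL2A1* had medians of 37641 against 44361 CPM and a ratio of -0.37. *ACAN*, its link protein gene *HAPLN1* and the transcription factor *SOX9* lay the other way at 0.24, 0.42 and 0.52. The 7 measured chondrogenic transcription factors had a median of 0.52, with 6 above 0 and none past 2-fold. *SOX5*, a partner of *SOX9*, stood at 0.78 and *FOXO1*, a regulator of stress resistance, at 0.77.

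The small leucine-rich proteoglycans bind and space collagen fibrils. Of 10 measured members, *OGN* (osteoglycin) was past 2-fold higher, with a median of 1102 against 368 CPM and a ratio of 1.04, and *OMD* (osteomodulin) past 2-fold lower at -1.16, beside 3.60% and 3.97% of all genes. The ratio of *OGN* was -0.21 against the 9 cells at 0 reads of *PRG4*. *LUM* stood at 0.85, *FMOD* at 0.78, *PRELP* at 0.54 and *DCN* at 0.48, and the median over the list was 0.30. *FMOD*, fibromodulin, had a median of 9104 CPM in PRG4-high cells and 4748 CPM in PRG4-low cells. Of 9 fibrous and pericellular collagens, *COL1A1* and *COL1A2* were past 2-fold lower at -3.38 and -2.01, none was past 2-fold higher, and the median was -0.37, beside 3.97% of all genes past 2-fold lower. The direction depended on the cells with *COL1A1* reads: *COL1A2* stood at 0.70 without them, and within the *COL2A1* cells the list median was 0.75. That median covers 8 genes, without *COL1A1*, which was at 0 by the choice of cells.

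**Figure D4:**
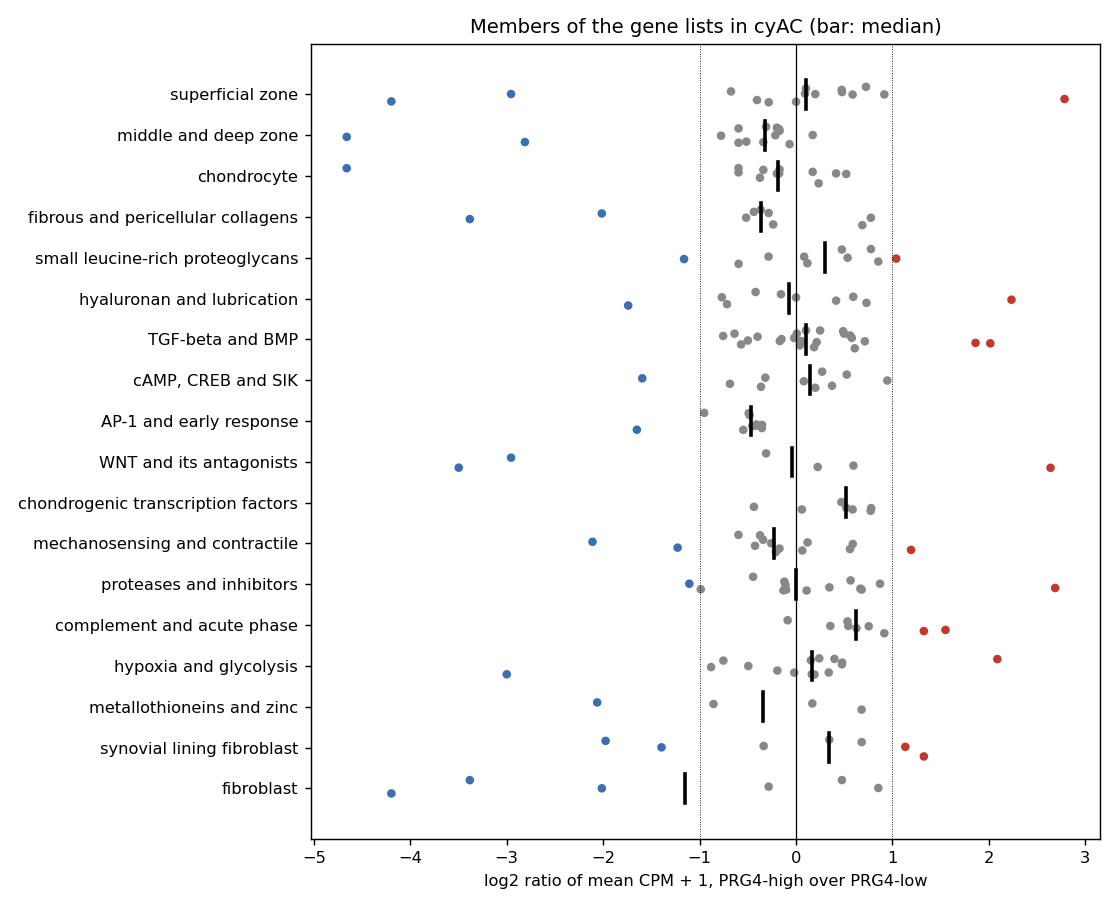
Log2 ratios of mean CPM + 1, PRG4-high over PRG4-low cyAC cells, for the measured members of 18 gene lists. Each point is a gene, red and blue points are past 2-fold, and the bar is the list median, which runs from -1.15 for fibroblast genes to 0.63 for complement and acute-phase genes.

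Genes of joint lubrication and of the complement and acute-phase group were also counted. Of 10 measured genes of hyaluronan and lubrication, *TNFAIP6* was past 2-fold higher and *HAPLN3* past 2-fold lower, with a list median of -0.08. *TNFAIP6*, a hyaluronan-binding protein induced by inflammation, stood at 174 against 36.3 CPM, but 41.9% of its summed CPM in PRG4-high cells lay in 1 cell. The hyaluronan synthase *HAS2* stood at -0.72. Of 9 complement and acute-phase genes, *CLU* among them, 8 had a ratio above 0, as did 1655 of all 3250 genes, and 2 were past 2-fold higher, beside 3.60% of all genes, with a median of 0.63. *CD55*, a membrane protein that restrains complement, had a median of 471 against 109.9 CPM and a ratio of 1.33, with reads in 82 of 96 and 123 of 161 cells. *CHI3L1*, a secreted chitinase-like glycoprotein, had a ratio of 1.55, with 32.5% of its summed CPM in 1 PRG4-high cell.

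The signalling lists are read beside the 3.60% of all genes past 2-fold higher and 3.97% past 2-fold lower. Of the 23 measured genes of the TGF-β and BMP pathways that are reported here, *INHBA* and *GDF10* were past 2-fold higher and none was past 2-fold lower. The receptors *TGFBR1*, *TGFBR2* and *TGFBR3* stood at -0.57, -0.15 and 0.61, the ligand *TGFB1* at 0.05, and the list median was 0.10. Of 6 measured WNT genes, the antagonist *SOST* was past 2-fold higher at 2.64, from reads in 16 PRG4-high and 9 PRG4-low cells, and *SFRP5* and *DKK3* were past 2-fold lower. The list median was -0.04. Of 10 genes of cAMP, CREB and SIK signalling, *NR4A1* was past 2-fold lower at -1.59, *PDE4D*, a cAMP phosphodiesterase, stood at 0.95 and the kinase *SIK3* at 0.27, with a median of 0.14. All 10 measured AP-1 and early-response genes had ratios below 0, where 1655 of all 3250 genes lay above 0, with a median of -0.47 and *JUN* past 2-fold lower at -1.65.

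The remaining lists are read beside the same shares of 3.60% and 3.97% of all genes. Of 14 mechanosensing and contractile genes, *PIEZO2*, a stretch-activated ion channel, was past 2-fold higher at 1.19, *TAGLN* and the myosin light chain *MYL9* were past 2-fold lower, and the median was -0.23. Against the 9 PRG4-low cells at 0 reads of *PRG4*, *MYL9* stood at 1.79 and *PLAT*, described next, at -0.018. The channel *TRPV4* stood at 0.07. Of 14 proteases and inhibitors, *PLAT*, the tissue plasminogen activator, had a ratio of 2.69 from 10 PRG4-high cells, with 57.3% of its summed CPM in 1 of them. *TIMP3*, a metalloproteinase inhibitor, was past 2-fold lower at -1.11, and the list median was 0.00. Of 15 hypoxia and glycolysis genes, *CA9* was past 2-fold higher and *SLC2A3* past 2-fold lower, with a median of 0.16. Of 4 metallothionein and zinc genes, *SLC30A1* was past 2-fold lower, with a median of -0.34.

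Markers of other cell types also differed between the groups. Of 6 measured fibroblast genes, *COL1A1*, *COL1A2* and *DPT* were past 2-fold lower in PRG4-high cells, with a list median of -1.15, beside 3.97% of all genes lower. *COL1A2* stood at 0.70 without the cells that held *COL1A1*, and within the *COL2A1* cells the list median was 1.03. That median covers 4 genes, since *COL1A1* was at 0 there by the choice of cells and *DPT*, at -2.26, fell below 50 CPM. Among the 4 was *COL1A2*, from reads in 2 PRG4-high and 2 PRG4-low cells. *COL1A1* reads were listed in 3 PRG4-high cells, in no cell between and in 16 PRG4-low cells, where counts below 76 reads do not occur in this library. Summed over the 9 found fibroblast genes, the level ran from 687 to 50589 CPM per PRG4-high cell, with a median of 11762 against 8456 CPM in PRG4-low cells. Of 7 measured synovial lining genes, *CD55* and the adhesion molecule *VCAM1* were past 2-fold higher at 1.33 and 1.13 and *PDPN* and *THY1*, surface proteins of synovial fibroblasts, past 2-fold lower at -1.97 and -1.39. These counts stand beside 3.60% of all genes higher and 3.97% lower, and the list median was 0.34. *VCAM1* had 31.2% of its summed CPM in 1 cell. *CLIC5*, an ion channel protein of the synovial lining, was listed in 1 of 96 PRG4-high cells. The part of other fibroblasts in the ratios was not tested.

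Markers of blood, vessel, fat and dividing cells were then summed. All 6 endothelial markers found were listed at 0 in PRG4-high cells, as were *PTPRC*, *C1QA* and *C1QC* of the 8 immune markers and *CD3E* and *IL7R* of the 6 T cell markers. The summed means were 33.0 CPM for immune and 26.2 CPM for T cell markers, against 13.9 and 16.9 CPM in PRG4-low cells. No PRG4-high cell held reads of 3 or more genes of the immune, T cell or endothelial lists, and 1 cell each did for the mural, adipocyte and cycling lists. Mural markers summed to 78.5 against 60.8 CPM, cycling genes to 33.5 against 59.9 CPM, and adipocyte genes to 123 against 139 CPM. Of the bone and marrow list, *SOST* was past 2-fold higher and *SPP1* past 2-fold lower, with *IBSP* and *DMP1* listed at 0 in PRG4-high cells.

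Within the cells that held *COL2A1* and no *COL1A1* reads, a choice made after the values were seen, 82 PRG4-high and 137 PRG4-low cells were left. Of 3214 genes, 154 (4.79%) were at least 2-fold higher and 118 (3.67%) lower, and 88 genes in each direction were shared with the comparison over all cells. All 12 highest genes stayed past 2-fold, among them *SULF2* at 3.20, *SEMA3A* at 3.08, *INHBA* at 1.95 and *KCNMA1* at 1.48, as did 10 of the 12 lowest, without *S100A4* and *ECM1*. The zone lists stood further apart there. Of 13 superficial-zone genes measured, 11 had ratios above 0, 2 were past 2-fold higher and none lower. Their median was 0.34 beside 0.04 over all genes, of which 1732 of 3214 lay above 0. *DPT*, at -2.26, and *DKK3*, at 2.75, were no longer measured in this list. *ABI3BP* was now past 2-fold at 1.15. Of 15 middle- and deep-zone genes, 2 had ratios above 0, 1 was past 2-fold higher and 3 lower, with a median of -0.52. The fibroblast list lay the other way, with all 4 measured members above 0 and a median of 1.03. *COL1A1*, at 0 by the choice of cells, and *DPT* were no longer among its measured members. The fibrous and pericellular collagens also lay the other way, with 7 of 8 measured members above 0, 3 past 2-fold higher, none lower and a median of 0.75. Those 3 were *COL5A1* at 1.51, *COL12A1* at 1.14 and *COL1A2* at 1.42, the last from reads in 2 PRG4-high and 2 PRG4-low cells. The small leucine-rich proteoglycans had a median of 0.56, with *ASPN* at 2.35, *LUM* at 1.55 and *OGN* at 1.32 past 2-fold higher and *OMD* at -1.16 past 2-fold lower. Over all cells *ASPN* stood at -0.28.

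The PRG4-high cells were not uniform. In 14 of the 96, no *COL2A1* was listed, where counts below 211 reads do not occur in this library, and 3 of these held *COL1A1*. Their *PRG4* median was 9151 CPM beside 8180 CPM in the 82 with *COL2A1* alone, at median depths of 27632 and 28678 reads. Some cartilage matrix genes stood lower in them, with a median *ACAN* of 1903 against 6078 CPM, *CHAD* of 1086 against 12252 CPM and *COL9A1* of 275 against 5180 CPM. Others lay closer, with a median *FMOD* of 8859 against 9297 CPM and *BGN* of 10954 against 13902 CPM. *CLU* stood at a median of 63537 CPM in them, with a range of 5532 to 164699 CPM, against 12837 CPM, with a range of 3559 to 34092 CPM. *CHI3L1* was found in 12 of the 14 and 47 of the 82, *INHBA* in 2 of the 14 and 58 of the 82, and *COL1A2* in 9 of the 14 and 2 of the 82. *CLIC5* was listed at 0 in all 14. Among all 25 cyAC cells with neither collagen, 44.0% were PRG4-high, beside 29.7% of the 276 cells with *COL2A1* alone.

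Genes of the highest ratios did not all occur in the same cells. A PRG4-high cell held reads of a median of 6 of the 12 highest genes (quartiles 4 and 7, range 2 to 11), where a PRG4-low cell held 3. Of the 12 lowest genes, the medians were 3 and 5. These genes were chosen by their ratio between the same groups of cells. The gaps between the medians therefore follow from that choice and are no separate finding. The 60 PRG4-high cells with *INHBA* had a median *PRG4* of 9660 CPM, against 5969 CPM in the 36 without, at median depths of 29983 and 25952 reads. *CHI3L1* was found in 50.0% of the cells with *INHBA* and in 80.6% of those without. *SEMA3A* was found in 51.7% and 41.7% of them, and in 0 of the 5 PRG4-high cells with *CNMD*.

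Whether PRG4-high cells lay near each other was read from principal components built without *PRG4*. Among the 20 nearest neighbours of a PRG4-high cell, 48.0% were PRG4-high on average, with a median of 50% over cells and a range of 15% to 80%. The share was 38.3% around the cells between and 28.8% around PRG4-low cells, beside 30% of all cyAC cells. The mean share around a cell of any class was thus above 30%, so 48.0% beside 30% overstates how closely PRG4-high cells lay together. At equal depth, the share was 40% around PRG4-high cells, 31.7% around the cells between and 22.6% around PRG4-low cells, beside 29.2% of all cells.

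The same split by *PRG4* was made in the other samples, whose cells the rule had not used. Of the 79 genes higher in cyAC, 48.1% had a ratio above 0 in cyFT, beside 41.1% of all 3112 genes. In cyiPS-Cart the shares were 43.0% beside 42.1% before transplantation and 45.6% beside 44.0% after it, close to the level over all genes. Of the 102 lower genes, 64.7% had a ratio below 0 in cyFT beside 58.9% of all genes, and in cyiPS-Cart 51.0% beside 57.7% before and 47.1% beside 55.9% after transplantation. No gene was at least 2-fold higher in all 4 samples, and 1 was at least 2-fold lower, the haem oxygenase gene *HMOX1*, at -1.93 in cyAC, -1.76 in cyFT, -1.02 in cyiPS-Cart before and -2.35 after transplantation. The cyFT cells shared a library with cyAC.

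Among the 24 named genes, 4 of the highest and 3 of the lowest kept their sign in all 4 samples. The share of all genes that did so was not counted. In cyFT, pre-transplant and post-transplant cyiPS-Cart, 7, 7 and 5 of the 12 highest lay above 0, beside 41.1%, 42.1% and 44.0% of all genes. Of the 12 lowest, 10, 5 and 6 lay below 0, beside 58.9%, 57.7% and 55.9%. *INHBA* had ratios of 0.66, 1.21 and 0.41 in cyFT, pre-transplant and post-transplant cyiPS-Cart. *SEMA3A* had 1.75, 0.78 and 0.01, *KCNMA1* 3.75, 0.11 and 0.98, and *SULF2* 0.20, 0.43 and 0.06, so several lay near 0. *CNMD* had ratios of -2.50, -0.25 and -0.08, *SPP1* of -6.76, -3.38 and -0.69, and *ECM1* of -0.57, -4.33 and -0.98. *CD55* was higher in PRG4-high cells in each sample, with ratios of 2.18, 0.51 and 0.18, while *CLU* stood at 0.56, -0.47 and -0.35.

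**Figure D5:**
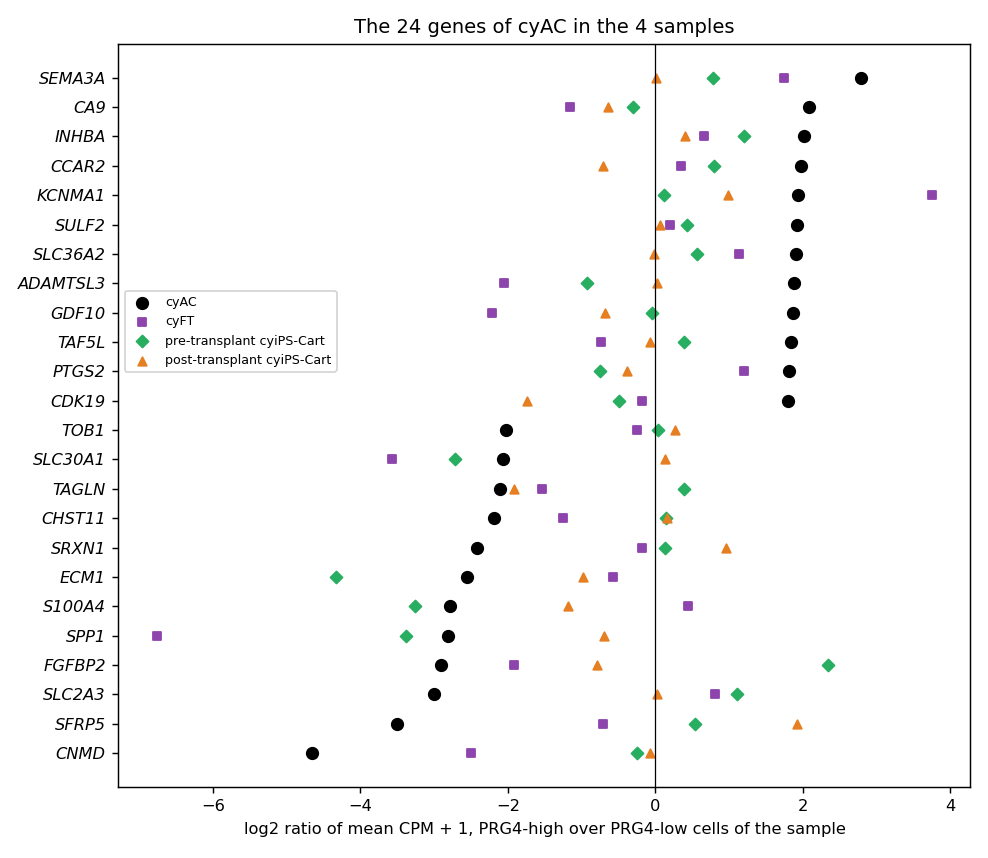
Log2 ratios of mean CPM + 1, PRG4-high over PRG4-low cells of the same sample, for the 12 highest and 12 lowest genes of cyAC. Black points are cyAC, which chose the genes. The other samples lie on both sides of 0 for many genes, and *INHBA* lies above 0 in all 4, at 2.02, 0.66, 1.21 and 0.41.

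PRG4-high cells of the 4 samples were set side by side. *COL2A1* reads were found in 85.4% of them in cyAC, in 2 of 24 in cyFT (8.3%, 1.0 to 27) and in all 24 pre-transplant and all 42 post-transplant cells. In cyFT, 14 of the 24 held neither collagen. *CLIC5* was found in 9 of the 24 cyFT cells (37.5%, 18.8 to 59.4) and in 1 of 96 cyAC cells (1.0%, up to 5.7). *TIMP3* had a median of 4859 CPM in cyFT and of 343 CPM in cyAC, and *CD55* of 4209 and 471 CPM. Other synovial lining genes lay the other way, with *VCAM1* found in 37.5% of PRG4-high cells of cyFT and 47.9% of cyAC, and *PDPN* in 12.5% and 24%. *CLU* had medians of 13715 CPM in cyAC, 1478 CPM in post-transplant, 609 CPM in cyFT and 225 CPM in pre-transplant cells. *GDF10* was found in 59.4% of PRG4-high cells of cyAC, in 16.7% of cyFT and in 4.2% of pre-transplant and 4.8% of post-transplant cells. With 1 sample each, tissue and sample cannot be told apart.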

How the data were processed

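Per-cell read counts for each gene were deposited by the authors, of which a matrix of 14020 genes and 320 cells in each of 4 samples was used. Per their methods, cDNA reads were assigned with Bowtie2 2.4.2 to Ensembl transcripts of the cynomolgus monkey (Macaca_fascicularis_6.0), cells above the knee-plot inflection were kept, samples were separated by hashtag, counts of abundant genes taken for diffused background were set to 0, and cells rich in mitochondrial reads were removed. The submitters' notes also name cutadapt 3.4, R 3.6.3 and, as the only genome build, the human GRCh38, and which of these references the deposited counts rest on was not settled here. A listed 0 in a corrected gene may therefore have held reads. No molecule counting is described. The matrix with cyiPSC and the hashtag libraries were not used here. Cells were assigned to samples by their name prefixes, cyAC and cyFT with the code supplied with the paper.

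Cells, members and gene lists were chosen with earlier results of these data known. CPM was taken over all listed genes per cell, and the log2 ratio of group means used a pseudocount of 1 CPM and a minimum of 50 CPM in either group. Named genes were the 12 highest and 12 lowest ratios among genes that 25% of the cells of one group or the other held reads of, plus members of 25 lists (286 of 348 genes found). A gene left out of these lists is not reported here. Other genes named were chosen after their values were seen. Shares have exact Clopper-Pearson and sums exact Poisson 95% intervals, for counting error only. No test was run, since each condition was 1 sample. Thinning drew 16101 reads per cyAC cell, leaving out 32 shallower cells, 12 of them PRG4-high, and 12191 reads per cell across samples. Neighbours used 2000 variable genes and 30 principal components (scikit-learn 1.9.0). Doublets were called by scrublet (scanpy 1.11.5), which marked 3 cyAC cells, 1 PRG4-high, and were kept. Analyses used Python 3.11.15, numpy 2.4.6, pandas 2.3.3, scipy 1.17.1, matplotlib 3.10.9 and, for TMM factors, edgeR 4.0.16 in R 4.3.3. The ratio step was tested on simulated data. Alternatives were sums of reads, TMM, other totals, pseudocounts, filters, thresholds, cell sets and thinning.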

Additional observations from a re-analysis of the deposited data

Results flagged for a closer look

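For 7 of the 24 named genes, the ratio between PRG4-high and PRG4-low cells passed 2-fold one way in cyAC and the other way in another sample. With 1 sample per condition these differences were not tested. *CA9*, *ADAMTSL3* and *GDF10*, at 2.09, 1.88 and 1.86 in cyAC, stood at -1.16, -2.06 and -2.21 in cyFT. *CDK19* stood at 1.80 in cyAC and -1.74 in post-transplant cyiPS-Cart. *SFRP5* stood at -3.50 in cyAC and 1.92 in post-transplant cyiPS-Cart, where it was found in 1 of 42 PRG4-high cells. *SLC2A3* and *FGFBP2*, at -3.0 and -2.90 in cyAC, stood at 1.11 and 2.34 in pre-transplant cyiPS-Cart. The 50 CPM minimum was applied in cyAC alone. PRG4-high means in cyFT were 19.7 CPM for *CA9*, 11.0 for *ADAMTSL3* and 27.9 for *GDF10*, from reads in 4, 3 and 4 of 24 cells. *CDK19* had 11.3 CPM in PRG4-high post-transplant cells. *FGFBP2* had 9.86 CPM in PRG4-high pre-transplant cells, from reads in 4 of 24.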

How the results depend on the processing

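No paired analysis was possible because each condition was 1 sample. The count of higher genes (117) was 71 with a pseudocount of 10 CPM and 72 without each gene's highest cell, a setting chosen after seeing the data, where higher genes were 35.1% of those past 2-fold, against 47.6%. Higher and lower genes numbered 583 and 682 with a minimum of 10 CPM, 1027 and 1580 with none (39.4% higher), 220 and 225 with a threshold of 9, and 977 and 920 against the 9 cells at 0 reads of *PRG4*. Why these counts moved was not tested. The PRG4-high share of cyAC was 40% with a threshold of 7 and 15.3% with 9, that of cyFT 11.2% with 7, that of pre-transplant cyiPS-Cart 1.88% with 9, and that of post-transplant cyiPS-Cart 26.6% with 7 and 4.69% with 9. Against the 9 cells at 0, ratios reversed to 3.16 for *SLC2A3*, 0.13 for *SPP1*, 1.09 for *CHST11*, 1.54 for *SLC30A1*, 1.79 for *MYL9*, -0.21 for *OGN* and -0.018 for *PLAT*. Without *COL1A1* cells they reversed to 0.013 for *S100A4*, 0.70 for *COL1A2* and 2.03 for *DKK3*, and within *COL2A1* cells, also chosen after seeing the data, to 0.090, 1.42 and 2.75, where *COL1A2* had reads in 2 PRG4-high and 2 PRG4-low cells and *DKK3* in 3 and 1. Of the 12 highest genes, the ratio dropped below 2-fold for *SULF2* against the 9 cells at 0 (0.21), for *CDK19* with sums (0.87), TMM (0.89) and a threshold of 9 (0.40), and for *PTGS2* with sums (0.76), TMM (0.77), a threshold of 9 (0.91) and the stricter cell filter (0.83). The cause was not tested. Sums, TMM, thinning, a stricter cell filter and leaving out marked doublets gave 91 to 135 higher and 120 to 142 lower genes, but sums and TMM shared 61 and 62 of the 117 higher and 93 and 89 of the 129 lower genes. The share of PRG4-high neighbours ranged from 40% to 49.2% over the alternatives, and with 10 neighbours the highest share around a cell was 100%. Depth limits the low genes, since 50 CPM is between 1 and 2 reads at the median depth.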
